A study of Mus musculus with 13 samples.

Results

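The aminoacyl-tRNA synthetases are the enzymes that attach each amino acid to its transfer RNA, and their genes were chosen by name. Among the 37 mouse genes, those ending in 2 encode the separate enzymes of mitochondria, except the cytosolic Tarsl2. Of the 37 genes, 34 were found in the array annotation, 20 cytosolic and 14 mitochondrial, and 32 were measured well enough to be tested, among 10382 genes tested in all. The tested genes comprised 7 cytosolic genes whose products sit in the multi-synthetase complex (Mars, Iars, Eprs, Lars, Qars, Kars and Rars), 13 other cytosolic genes and 12 mitochondrial genes. Hars2 and Yars2 did not exceed the background level on any array, and Dars, Cars2 and Tars2 are not analysed here. The cytosolic genes Mars, Aars and Nars rose within the first day of differentiation of islet progenitors, 3 of 20 where 2% of all genes tested rose and 2.37% fell. None of the 12 mitochondrial genes passed the test in that comparison with limma, against 3 at an unadjusted p under 0.05.

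RNA from 13 samples was hybridised to single-colour Illumina bead arrays, with C57BL/6 given as the mouse strain. Whether this strain also holds for the W9.5 embryonic stem cells was not checked here. In their comparison with day 0, a strain difference could not be told apart from a difference of cell type. Islet progenitors from pancreas, described in the study's design as purified, were profiled on 3 days of differentiation: 4 samples at day 0, 3 samples at day 1 and 2 samples at day 4. W9.5 embryonic stem cells (n = 2) served as a negative control and adult islets (n = 2) as a positive control. The labels give no treatment, genotype, age, donor or batch for any group, and they do not say how the progenitors were purified or whether replicates came from separate animals or cultures, so that p-values reflect only how far these arrays scatter, and that scatter may be technical.

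Each synthetase recognises 1 amino acid and the transfer RNAs that carry it, and so fixes the genetic code in the cytosol and, through a second set of nuclear-encoded enzymes, in mitochondria. In vertebrates several cytosolic synthetases are held together by the scaffold proteins Aimp1, Aimp2 and Eef1e1, and Eprs joins the glutamate and proline enzymes in a single chain. Gars and Kars are exceptions to the division of labour, since each gene makes both the cytosolic and the mitochondrial enzyme. When an amino acid runs short or the endoplasmic reticulum is under load, translation of the transcription factor Atf4 increases, and many cytosolic synthetase genes are known targets of Atf4. Pancreatic endocrine cells are known for making large amounts of secreted protein.

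Stretches of promoter are shown for Aars and Mars, whose transcripts rose at day 1, and for 3 cytosolic genes that hold the core letters of the Atf4 response element in their promoter window but did not pass the test at day 1. The letters searched were TGATGNAA and, on the other strand, TTNCATCA, in RefSeq windows of 300 bases, from 250 bases before to 50 bases after a transcript start, on build GRCm38.p6. Windows were found for 28 of the 37 genes, and those of Cars, Hars, Hars2, Lars, Nars, Pars2, Rars, Vars and Wars were not used here. The letters occurred in 5 of the 14 cytosolic genes with a window (Aars, Gars, Iars, Tars and Yars) and in 0 of the 14 mitochondrial genes, and in 4.51% of all gene symbols in the same table. Aars held 2 matches, which begin at positions -112 and 10 counted from the start, and Mars held none. Of these stretches, 4 show 150 bases before the start and 2 show 30 bases from the start, read 5′ to 3′ on the strand of the gene, with matches in capitals. The Aars stretches, chr8:111033692-111033841 and chr8:111033842-111033871 on the plus strand, lie around a start inside the longer annotated gene, which runs from 111027778 to 111055569. Mars is at chr10:127311787-127311936 on the minus strand, Gars at chr6:55037851-55038000 on the plus strand, Tars at chr15:11399659-11399808 on the minus strand and Iars at chr13:49682130-49682159 on the plus strand.
Aars, before the start: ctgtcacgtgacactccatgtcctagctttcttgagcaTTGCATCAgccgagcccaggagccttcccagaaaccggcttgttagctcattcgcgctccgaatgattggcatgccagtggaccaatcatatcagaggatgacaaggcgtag
Aars, from the start: cgggtcactTTTCATCAgagcgctctgatt
Mars, before the start: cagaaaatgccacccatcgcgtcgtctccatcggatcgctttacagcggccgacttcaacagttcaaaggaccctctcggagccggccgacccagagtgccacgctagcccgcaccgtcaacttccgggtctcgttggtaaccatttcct
Gars, before the start: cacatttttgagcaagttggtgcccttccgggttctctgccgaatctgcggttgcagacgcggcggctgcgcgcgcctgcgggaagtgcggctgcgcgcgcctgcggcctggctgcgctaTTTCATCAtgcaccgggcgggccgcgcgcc
Tars, before the start: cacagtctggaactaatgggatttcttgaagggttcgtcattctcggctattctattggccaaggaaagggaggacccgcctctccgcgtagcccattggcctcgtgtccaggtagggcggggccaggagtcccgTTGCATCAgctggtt
Iars, from the start: gtcagtaTTGCATCAcctccagacgcggaa
A match is a run of letters and not a measured binding site, and a window without one says nothing about Atf4 elsewhere in the gene.

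Levels are log2 intensities of the brightest probe of a gene, as the authors deposited them after normalization, and a difference of 1 on this scale is a 2-fold change. A probe was taken as above background at a level over 7.24, and a gene was called changed at a limma p under 0.05 after Benjamini-Hochberg adjustment over all 10382 genes. The background level was exceeded on all 13 arrays by 21 of the 32 genes tested, 15 of 20 cytosolic and 6 of 12 mitochondrial. Cars, Hars, Yars, Farsa, Nars2, Aars2, Sars2, Mars2 and Pars2 lay close to background on most arrays, where differences can be compressed. The same limit holds for groups of arrays in which Eprs, Tarsl2 and Lars2 came down to that level. Gars had the opposite limit, since at day 0 it came within 0.370 of the brightest probe of an array, where differences can be compressed as well. On 7 of the 13 arrays or fewer, Cars, Hars, Yars and Nars2 were above background, so the absence of a call for these genes carries little weight.

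The labels were checked against marker genes. The summed level of 10 pluripotency genes was 15.60 to 15.68 in embryonic stem cells and at most 11.27 elsewhere. That of 13 islet endocrine genes was 16.56 to 17.02 in progenitors and adult islets and 10.75 to 10.79 in embryonic stem cells, where 12 of the 13 were at background. Acinar enzymes of the exocrine pancreas were present in every pancreatic sample, at a summed level of 13.37 to 15.42 at day 0, 14.42 to 15.92 at day 1, 14.53 to 14.84 at day 4 and 17.44 to 17.70 in adult islets. Day 0 replicate 3 was the lowest and day 1 replicate 2 the highest of the progenitor arrays on this measure, and results for day 1 are given with and without both. The day 4 arrays correlated at 0.995 and the adult islet arrays at 0.989, against 0.938 to 0.977 within day 0 and day 1.

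**Figure D1:**
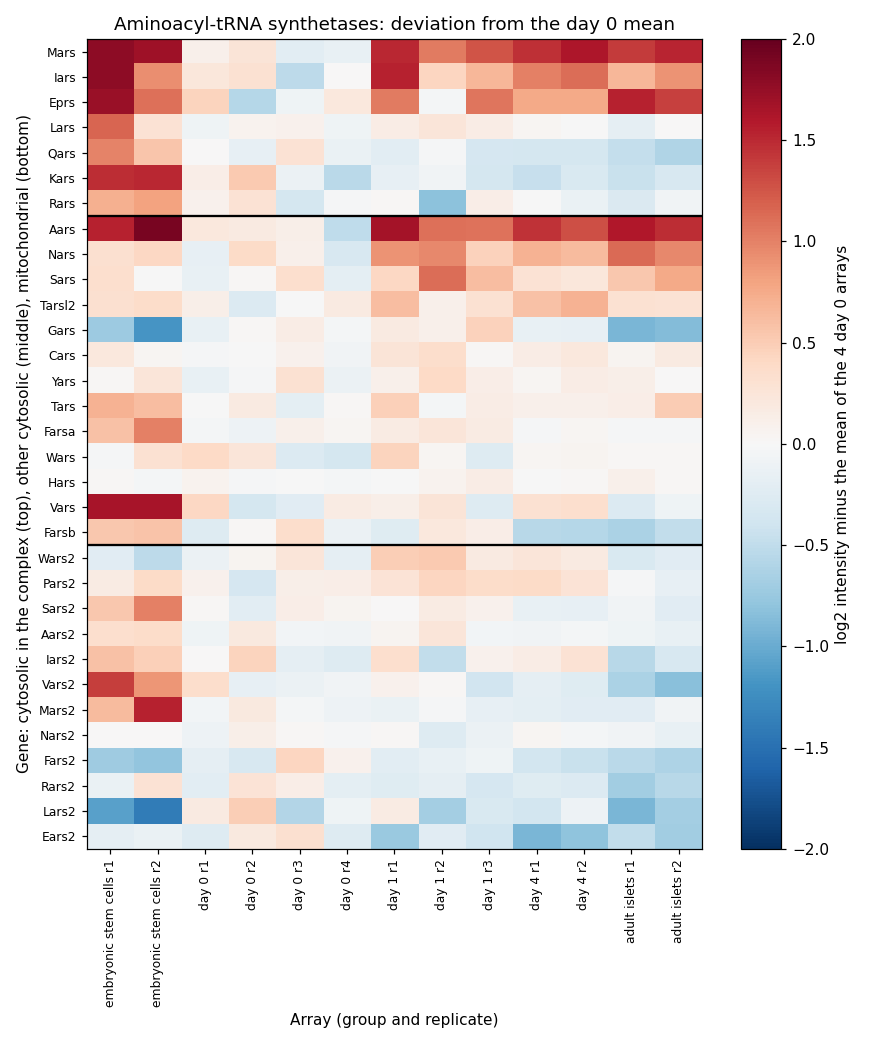
Heat map of the 32 genes tested (rows: cytosolic in the complex, other cytosolic, mitochondrial) on the 13 arrays (columns), coloured by log2 intensity minus the mean of the 4 day 0 arrays. Mars and Aars are raised on the 3 day 1, 2 day 4 and 2 adult islet arrays, while most mitochondrial rows are near or under 0 there.

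The first comparison, day 1 against day 0, asks what changes on entry into differentiation. Within the complex, the methionine enzyme Mars rose 2.41-fold. Its level was 8.87, 9.03, 8.56 and 8.63 on the day 0 arrays and 10.28, 9.81 and 10.03 on the day 1 arrays. Every day 1 array lay above every day 0 array. The difference was 1.27 ± 0.14 (log2 ± SE, adjusted p = 5.73e-04), and a second Mars probe gave 0.95. Mars was the only complex gene of 7 to pass. In a bulk sample, more RNA per cell and more cells of a type that expresses the gene cannot be told apart, here and in every comparison that follows.

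Among the other cytosolic enzymes Aars, which charges alanine, and Nars, which charges asparagine, rose with Mars. Aars stood at 10.26, 10.23, 10.18 and 9.55 at day 0 and at 11.72, 11.15 and 11.14 at day 1. The groups did not overlap, and the difference was 1.28 ± 0.20 (adjusted p = 0.00519), a 2.43-fold rise. Nars stood at 8.75, 9.30, 9.01 and 8.59 at day 0 and at 9.82, 9.87 and 9.38 at day 1. The lowest day 1 array was just above the highest day 0 array, and the difference was 0.77 ± 0.17 (adjusted p = 0.0286).

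Without day 0 replicate 3 and day 1 replicate 2, the difference was 1.31 for Mars (adjusted p = 0.00284) and 1.41 for Aars (adjusted p = 0.0206), both still called. Nars then differed by 0.71 with an adjusted p of 0.113, and its call was also lost when single arrays were omitted. The adjusted p became 0.0700 and 0.0581 when replicate 1 or 4 of day 0 was omitted, and 0.0794 and 0.101 when replicate 1 or 2 of day 1 was omitted.

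In all, 3 of 20 cytosolic genes rose and 0 fell. For the mitochondrial enzymes both counts were 0 of 12. The median difference was 0.20 over the cytosolic genes, -0.10 over the mitochondrial genes and 0.00 over all genes. A positive difference was seen for 17 of 20 cytosolic genes, the exceptions being the complex members Qars, Kars and Rars, and for 4 of 12 mitochondrial genes. Cars counts among the 17 and in the cytosolic median. It exceeded background on 2 day 1 arrays and on 0 arrays of every other group, so its positive sign follows from the filter. Over all genes, with a median of 0.00, positive and negative differences were about equally common.

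Of the genes that did not pass, 3 cytosolic ones had differences above 0.5. Sars, the serine enzyme, read 9.22, 9.39, 9.71 and 9.17 at day 0 and 9.79, 10.49 and 9.98 at day 1. The arrays did not overlap, and the difference was 0.72 ± 0.18 with an adjusted p of 0.0501, which fell under 0.05 in 6 of 18 alternative settings. Iars, the isoleucine enzyme of the complex, differed by 0.88 ± 0.29 (adjusted p = 0.132). Its day 1 levels of 11.26, 10.15 and 10.39 were spread widely, above a day 0 range of 9.19 to 10.03. Eprs differed by 0.69 ± 0.30 (adjusted p = 0.256), with day 1 replicate 2 at 7.59, inside the day 0 range of 7.06 to 8.08, and the other day 1 arrays at 8.67 and 8.70. Day 1 replicate 2 was thus the lowest of its group for Iars and Eprs and the highest for Sars.

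The mitochondrial genes with the largest differences at day 1 were the glutamate enzyme Ears2, at -0.46 ± 0.17 (adjusted p = 0.174), and the tryptophan enzyme Wars2, at 0.40 ± 0.13 (adjusted p = 0.123). Neither passed the test. The rest of the mitochondrial set lay between -0.27 and 0.36.

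**Figure D2:**
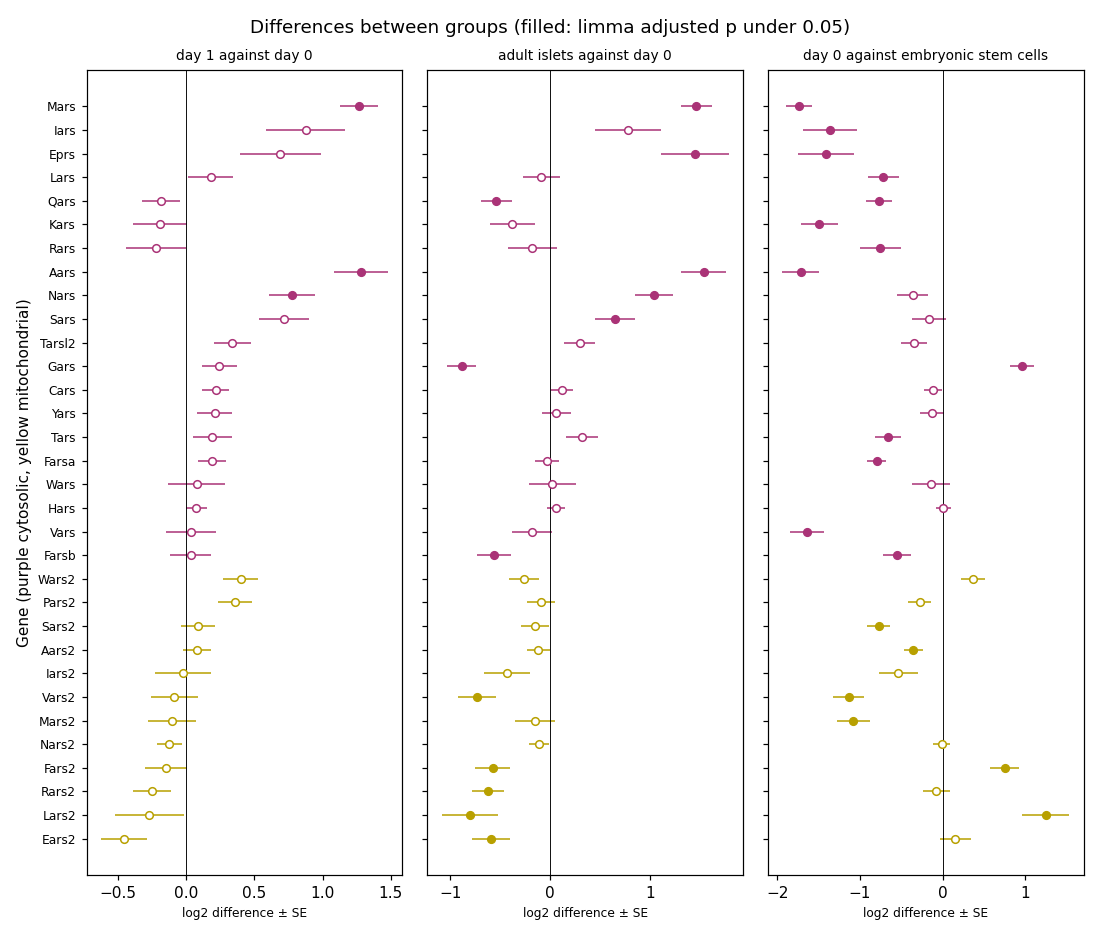
Difference of each of the 32 genes tested (log2 ± SE) in 3 panels (day 1 and adult islets, each against day 0, then day 0 against embryonic stem cells), with purple for cytosolic and yellow for mitochondrial genes and filled points where the adjusted p was under 0.05. The filled points at day 1 are Mars, Aars and Nars, and the 7 complex genes at the top of the third panel are all filled on the negative side.

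Day 4 against day 0 gives the net change over the days profiled, with the same day 0 arrays as control. Mars stood at 10.23 and 10.39 on the day 4 arrays, 1.54 ± 0.16 above day 0 (adjusted p = 2.70e-04), although its second probe gave 0.70. Aars, at 11.50 and 11.35, was 1.37 ± 0.22 above day 0 (adjusted p = 0.00375), and without day 4 replicate 1 its adjusted p was 0.0635. Both genes stayed well above every day 0 array.

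Nars, at 9.61 and 9.54, differed by 0.66 ± 0.19 with an adjusted p of 0.0499. The call for Nars was lost in 12 of 17 alternative settings, among them the omission of day 0 replicate 1, 3 or 4 and of either day 4 array (adjusted p = 0.0688 to 0.286). Tarsl2, a threonine enzyme of the cytosol, rose to 7.92 and 8.03 from 7.46, 7.06, 7.32 and 7.51 at day 0, by 0.64 ± 0.16 (adjusted p = 0.0251). Tarsl2 lies near background (difference 1.83 with background subtracted), and its adjusted p was 0.145 or 0.219 when replicate 1 or 2 of day 4 was omitted.

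The one gene to fall was mitochondrial. Ears2 read 9.01, 9.48, 9.59 and 9.02 at day 0, 8.53, 9.05 and 8.88 at day 1, and 8.37 and 8.47 at day 4. The day 4 arrays lay under every day 0 and day 1 array. The difference between day 4 and day 0 was -0.86 ± 0.19 (adjusted p = 0.0168), and leaving out day 4 replicate 1 or 2 gave an adjusted p of 0.159 or 0.113.

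The counts for day 4 were thus 4 of 20 cytosolic genes higher and 0 lower, and 0 of 12 mitochondrial genes higher and 1 lower, where 5.39% of all genes rose and 6.05% fell. The median difference was 0.10 for the cytosolic genes, -0.18 for the mitochondrial genes and -0.03 for all genes. The number of synthetase genes called dropped from 5 to 1 or 2 when replicate 1 or 2 of day 4 was omitted. Iars differed by 1.06 ± 0.33 (adjusted p = 0.0631) and Farsb, a subunit of the cytosolic phenylalanine enzyme, by -0.56 ± 0.17 (adjusted p = 0.0558), and neither passed. Over the same days 3 of 4 erythroid genes fell (summed level 9.39 to 9.42 at day 4, with 4 of 5 genes at background), 9 of 15 immediate early and stress genes fell (median -1.62) and 2 of 10 immune genes fell, while 1 of 12 acinar genes rose and 2 fell. Their part in the synthetase differences was not tested.

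Between day 1 and day 4 no synthetase gene was called by limma, where 0.992% of all genes rose and 0.559% fell, and 2 of the 32 had an unadjusted p under 0.05. Those 2 were Farsb, at -0.60 ± 0.18 (adjusted p = 0.139), and Gars, at -0.40 ± 0.15 (adjusted p = 0.235), named here after their values were seen. With arrays weighted by their quality 8 genes were called. Mars differed by 0.27 ± 0.17 and Aars by 0.08 ± 0.23 over this interval.

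**Figure D3:**
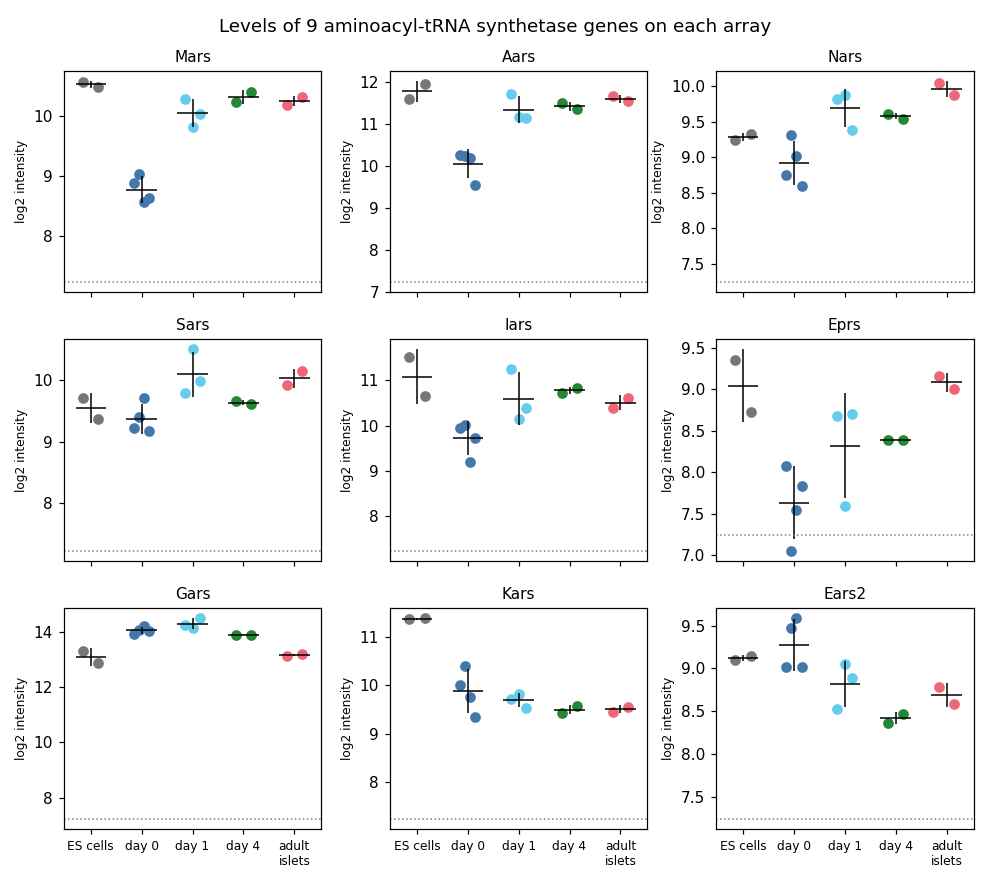
Log2 intensity of 9 synthetase genes on each of the 13 arrays by group, with a horizontal bar at the group mean, a vertical bar of 1 SD and a dotted line at the background level of 7.24. Mars and Aars are lowest on the 4 day 0 arrays, while Gars is lower in embryonic stem cells and adult islets than in progenitors.

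Adult islets were compared with day 4 and with day 0. Against day 4, the glycine enzyme Gars was lower, at 13.13 and 13.17 compared with 13.89 and 13.87, a difference of -0.73 ± 0.17 (adjusted p = 0.0143). Leaving out any of these 4 arrays raised the adjusted p to between 0.0762 and 0.0890. Of the 20 cytosolic genes 0 were higher and 1 lower, and for the 12 mitochondrial genes both counts were 0, with 4 at an unadjusted p under 0.05. Among all genes 7.53% were higher and 6.93% lower.

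Mars and Aars in adult islets did not differ from day 4 beyond the spread, at -0.07 ± 0.18 and 0.17 ± 0.26. The median difference was -0.04 for the cytosolic genes, -0.27 for the mitochondrial genes and -0.04 for all genes. The count for this comparison depended on how the spread was estimated, with 12 genes called when these 4 arrays were fitted alone. Markers of other cell types were higher in adult islets than at day 4: 8 of 10 immune genes (median 2.41), 7 of 8 endothelial genes (median 2.09) and 6 of 12 acinar genes (median 2.76), and 8 of 15 immediate early and stress genes were higher too (median 1.64). At day 4 the summed level was 10.67 to 10.72 for immune genes, with 7 of 11 at background on both arrays, and 11.14 to 11.34 for endothelial genes, with 7 of 10 at background. The part of these cells in the lower Gars level and the mitochondrial median was not tested.

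Against day 0, adult islets had higher levels of 5 cytosolic genes. Mars, at 10.18 and 10.30, was 1.47 ± 0.16 above day 0 (adjusted p = 5.07e-05), although its second probe gave 0.54. Eprs, the double enzyme for glutamate and proline, stood at 9.16 and 9.0 compared with 8.08, 7.06, 7.55 and 7.83 at day 0, a difference of 1.45 ± 0.34 (adjusted p = 0.00716). The adult arrays of both genes lay above all day 0 arrays. Eprs was under the background level on 1 of the 4 day 0 arrays, and its difference was 2.75 with background subtracted. A second Eprs probe gave 0.72, and without adult islets replicate 1 the adjusted p of Eprs was 0.0638.

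Aars, at 11.66 and 11.53, was 1.54 ± 0.22 above day 0 (adjusted p = 3.82e-04). Nars, at 10.04 and 9.88, was 1.04 ± 0.19 above day 0 (adjusted p = 0.00188). Sars, at 9.91 and 10.13, was 0.65 ± 0.20 above day 0 (adjusted p = 0.0301). These groups did not overlap, and the calls for Mars, Aars and Nars held in each of 17 alternative settings. Sars lost its call without day 0 replicate 1 or 4 or either adult array (adjusted p = 0.0617 to 0.209).

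Lower levels in adult islets than at day 0 were found for 3 cytosolic genes. Gars was at 13.89, 14.07, 14.19 and 14.01 at day 0, which put adult islets 0.89 ± 0.15 lower (difference -0.89, adjusted p = 8.85e-04). Farsb was at 11.36, 11.65, 11.97 and 11.50 at day 0 and at 10.99 and 11.13 in adult islets, a difference of -0.56 ± 0.17 (adjusted p = 0.0258). Qars, the glutamine enzyme of the complex, was at 10.88, 10.72, 11.16 and 10.74 at day 0 and at 10.39 and 10.28 in adult islets, a difference of -0.54 ± 0.16 (adjusted p = 0.0216). Each adult array was under each day 0 array for all 3 genes. Without adult islets replicate 1 or 2 the adjusted p was 0.171 or 0.0867 for Farsb and 0.0790 or 0.153 for Qars.

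All 12 mitochondrial genes had a negative difference between adult islets and day 0, and 5 passed the test. Among those not called, Nars2, Aars2, Sars2, Mars2 and Pars2 lay near background and differed by only -0.15 to -0.09. The leucine enzyme Lars2 was at 8.79, 9.12, 8.04 and 8.54 at day 0 and at 7.70 and 7.94 in adult islets, a difference of -0.80 ± 0.28 (adjusted p = 0.0491). The valine enzyme Vars2 was at 9.18, 8.67, 8.72 and 8.75 at day 0 and at 8.20 and 7.99 in adult islets, a difference of -0.74 ± 0.19 (adjusted p = 0.0125). Neither gene overlapped between the groups.

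The arginine enzyme Rars2 was at 9.84, 10.34, 10.19 and 9.86 at day 0 and at 9.37 and 9.51 in adult islets, a difference of -0.62 ± 0.16 (adjusted p = 0.0122), and its other probes gave -0.68 and -0.77. Ears2, at 8.79 and 8.59 in adult islets, differed by -0.59 ± 0.19 (adjusted p = 0.0337). The phenylalanine enzyme Fars2 was at 10.58, 10.44, 11.20 and 10.85 at day 0 and at 10.23 and 10.15 in adult islets, a difference of -0.58 ± 0.17 (adjusted p = 0.0245). The 2 adult arrays lay under the 4 day 0 arrays for all 3 genes. Such separation also occurred in this comparison for genes that were not called, namely Iars, Iars2, Aars2, Tarsl2 and Wars2.

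Several of these calls rest on single arrays. Lars2 lost its call in 11 of 17 settings, Ears2 in 7 and Fars2 in 5, while Rars2 and Vars2 lost theirs in 1 setting each, Rars2 without adult islets replicate 1 (adjusted p = 0.110) and Vars2 without adult islets replicate 2 (adjusted p = 0.123). For Lars2 the adjusted p was 0.0916, 0.0972 and 0.0663 without day 0 replicate 1, 2 and 4, and 0.248 and 0.129 without adult islets replicate 1 and 2. For Ears2 it was 0.0714 and 0.0658 without day 0 replicate 2 and 3, and 0.0898 and 0.220 without adult islets replicate 1 and 2. For Fars2 it was 0.10 and 0.147 without the 2 adult arrays in turn.

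The counts were 5 of 20 cytosolic genes higher and 3 lower, and 0 of 12 mitochondrial genes higher and 5 lower, where 14.7% of all genes were higher and 19.4% lower. The median difference was 0.06 for the cytosolic genes, -0.35 for the mitochondrial genes and -0.07 for all genes. The 13 calls dropped to 5 without adult islets replicate 1 and to 6 without adult islets replicate 2.

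Markers of other cell types moved in the same comparison. Of 12 acinar genes 9 were higher in adult islets than at day 0 and 2 lower. Of 8 endothelial genes 7 were higher, and of 10 immune genes 4 were higher. Of 5 ductal genes 3 were lower (median -0.84), of 4 erythroid genes 3 were lower (median -1.28), and of 15 immediate early and stress genes 2 were higher and 7 lower (median -0.48). The summed ductal level was 11.59 to 12.46 at day 0 and 11.26 to 11.32 in adult islets, the erythroid level 13.58 to 14.98 and 11.10 to 12.01, and the stress gene level 14.69 to 15.42 and 14.11 to 14.64. The summed level of 11 immune genes was 13.19 to 14.44 in adult islets and 11.41 to 12.18 at day 0, with Ptprc at background on all arrays of both groups, and that of 10 endothelial genes was 13.07 to 13.14 and 10.92 to 11.74, with Kdr and Tie1 at background in both. Their part in the synthetase differences was not tested.

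**Figure D4:**
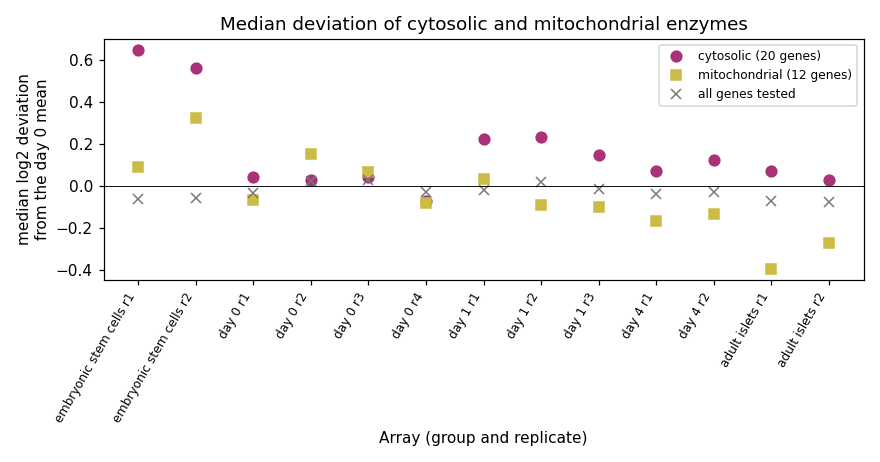
Median deviation from the day 0 mean (log2) on each of the 13 arrays, over the 20 cytosolic genes (circles), the 12 mitochondrial genes (squares) and all genes tested (crosses). The circle lies above the square on each day 1, day 4, adult islet and embryonic stem cell array, by 0.19 to 0.56, and the 4 day 0 arrays show gaps of -0.12 to 0.11.

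On single arrays the cytosolic median exceeded the mitochondrial median by 0.19, 0.32 and 0.25 at day 1, by 0.24 and 0.26 at day 4, and by 0.47 and 0.30 in adult islets. The day 0 arrays, from which the deviations were taken, gave 0.11, -0.12, -0.03 and 0.01. In embryonic stem cells the gap was 0.56 and 0.24. These medians describe a chosen set of genes and carry no test.

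The contrast between compartments was followed by amino acid, in 13 pairs of a cytosolic and a mitochondrial gene, in which Eprs was paired with both Ears2 and Pars2, and Fars2 with both Farsa and Farsb. At day 1 the cytosolic gene had the more positive difference from day 0 in 12 of 13 pairs, with a median gap of 0.45. The exception was tryptophan, at 0.08 for Wars and 0.40 for Wars2. At day 4 it was so in 11 pairs, with a median gap of 0.43, and in adult islets against day 0 in all 13, with a median gap of 0.80. These 3 comparisons share the day 0 arrays, as does the comparison of day 0 with embryonic stem cells. The pair counts of all these comparisons are thus not independent of each other.

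In adult islets the pair with the widest gap was glutamate, at 1.45 for Eprs and -0.59 for Ears2, followed by alanine, at 1.54 for Aars and -0.12 for Aars2, and methionine, at 1.47 for Mars and -0.15 for Mars2. Second probes gave 0.72 for Eprs and 0.54 for Mars, with which these gaps would be narrower. Aars2 and Mars2 lie near background, as do Nars2, Sars2, Pars2 and Farsa among the other pairs. This limits how far these genes could be seen to fall. At the other end the cytosolic and mitochondrial phenylalanine genes Farsb and Fars2 were lower by nearly the same amount, at -0.56 and -0.58.

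**Figure D5:**
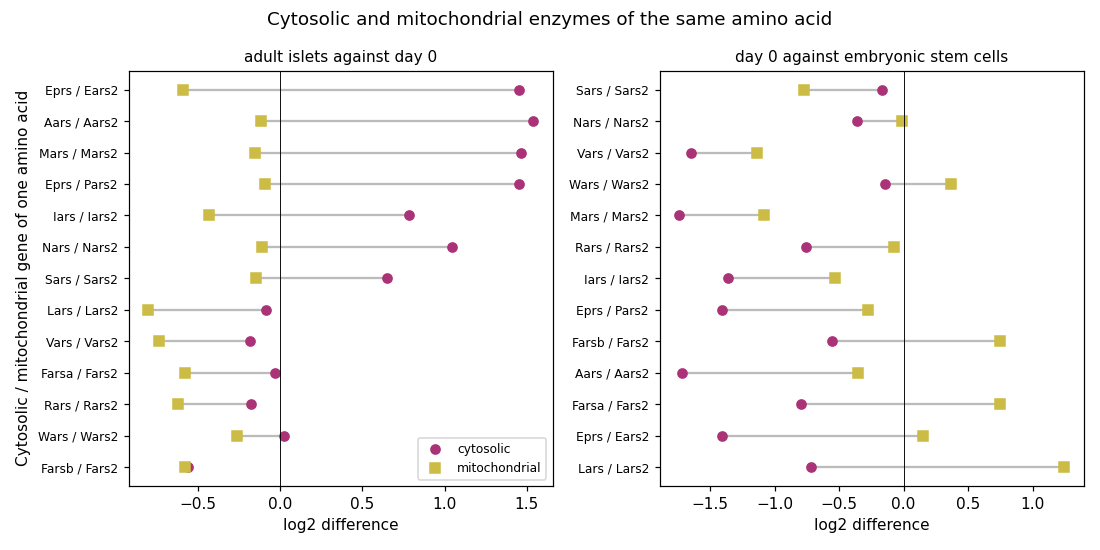
Log2 difference of the cytosolic (circles) and mitochondrial (squares) gene of each of 13 pairs, in adult islets relative to day 0 (first panel) and at day 0 relative to embryonic stem cells (second panel). The circle lies to the right of the square in 13 pairs in the first panel and in 1 pair, Sars and Sars2, in the second.

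Day 0 progenitors were compared with W9.5 embryonic stem cells, which proliferate rapidly in culture. All 7 complex genes were lower at day 0. Mars stood at 10.56 and 10.47 in embryonic stem cells, and day 0 differed from this by -1.74 ± 0.16 (adjusted p = 5.47e-06). Kars, the lysine enzyme of both compartments, stood at 11.35 and 11.38 in embryonic stem cells and at 10.01, 10.40, 9.76 and 9.33 at day 0, a difference of -1.49 ± 0.23 (adjusted p = 2.39e-04). No day 0 array of either gene reached the embryonic stem cell level. The other complex genes differed by between -1.41 (Eprs) and -0.72 (Lars). Second probes gave -0.29 for Eprs and -1.16 for Mars. The Lars difference was -0.28 without embryonic stem cells replicate 1 and -1.16 without replicate 2.

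Outside the complex, Aars was at 11.60 and 11.95 in embryonic stem cells, a difference of -1.72 ± 0.22 (adjusted p = 7.86e-05). Vars, the valine enzyme, was at 10.92 and 10.91 in embryonic stem cells and at 9.68, 8.92, 9.04 and 9.43 at day 0, a difference of -1.65 ± 0.20 (adjusted p = 5.80e-05). Day 0 lay below embryonic stem cells on all arrays for both genes, and the other Vars probes gave -1.06 and -0.50. Farsa, Tars and Farsb were lower as well, by between -0.80 and -0.56.

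Gars went the other way, at 13.31 and 12.86 in embryonic stem cells and 0.96 ± 0.15 higher at day 0 (adjusted p = 2.52e-04). It was the single cytosolic gene called higher at day 0, and its levels at both the day 1 and day 4 arrays also lay above those of embryonic stem cells. Nars, Sars, Tarsl2, Wars, Cars, Hars and Yars did not pass, with differences of -0.36 to 0.01.

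The mitochondrial genes were divided. Vars2 was at 10.22 and 9.72 in embryonic stem cells, a difference of -1.14 ± 0.19 at day 0 (adjusted p = 5.11e-04). Mars2 was at 8.08 and 8.99 in embryonic stem cells and at 7.39, 7.65, 7.41 and 7.35 at day 0, a difference of -1.08 ± 0.20 (adjusted p = 8.97e-04). Sars2 was at 7.91 and 8.37 in embryonic stem cells and at 7.39, 7.15, 7.50 and 7.42 at day 0, a difference of -0.78 ± 0.14 (adjusted p = 7.75e-04). For these genes every day 0 array was below both embryonic stem cell arrays. Mars2 differed by -0.63 without embryonic stem cells replicate 2.

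Aars2, at 7.64 and 7.66 in embryonic stem cells and at 7.22, 7.50, 7.25 and 7.23 at day 0, differed by -0.35 ± 0.11 (adjusted p = 0.0229), with an adjusted p of 0.0768 or 0.0980 when embryonic stem cells replicate 1 or 2 was left out. Lars2 was higher at day 0, from 7.53 and 7.22 in embryonic stem cells, by 1.25 ± 0.28 (adjusted p = 0.00371), and since 1 of the 2 embryonic stem cell arrays was under the background level the difference can be compressed (2.82 with background subtracted). Fars2, at 10.05 and 9.98 in embryonic stem cells, was higher by 0.75 ± 0.17 (adjusted p = 0.00388). No array of the progenitors at day 0 overlapped those of embryonic stem cells for Lars2 or Fars2.

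The counts were 1 of 20 cytosolic genes higher and 12 lower, and 2 of 12 mitochondrial genes higher and 4 lower, where 26.5% of all genes were higher at day 0 and 22.8% lower. The median difference was -0.69 for the cytosolic genes, -1.36 for the 7 complex genes, -0.18 for the mitochondrial genes and 0.05 for all genes. Calls that ended without embryonic stem cells replicate 1 were those of Eprs (adjusted p = 0.0643), Iars (0.0803), Lars (0.110), Rars (0.0798), Farsb (0.0720) and Aars2. Those that ended without replicate 2 were Rars (0.120), Farsb (0.0831) and Aars2, and Rars also lost its call without day 0 replicate 3 (0.0556). Of the marker lists, 12 of 12 acinar, 4 of 5 ductal, 3 of 4 erythroid and 11 of 15 immediate early and stress genes were higher at day 0, with 1 ductal and 1 stress gene lower, and their part in the synthetase differences was not tested.

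Probes of the same gene did not always give the same difference, among the 13 genes with several passing probes. For Rars at day 4 against day 0 the brightest probe gave -0.07 and the other 0.38. For Vars in the same comparison the probes gave 0.32, 0.11 and -0.28, and for Wars 4 probes ranged from -0.24 to 0.32. The genes concerned were not called in that comparison. Probes of called genes also gave unlike sizes. At day 0 against embryonic stem cells Tars gave -0.66 and, on a probe near background (mean level 7.38), -0.03, while Rars gave -0.76 and -1.30. In adult islets against day 0 Mars gave 1.47 and 0.54, while Sars gave 0.65 and 1.17. With the mean of the passing probes Tarsl2 lost its call at day 4 against day 0 (limma adjusted p = 0.0546).

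Partner genes of the synthetases were followed beside them. The scaffold genes Aimp1, Aimp2 and Eef1e1, which hold the complex together, had differences from day 0 of -0.48, -0.05 and -0.56 at day 1. The limma test called 0 of the 3, with 2 at an unadjusted p under 0.05. At day 0 against embryonic stem cells Eef1e1 was lower by -1.46 ± 0.21 and Aimp2 by -0.72 ± 0.20, while Aimp1 did not pass. The complex genes and 2 of their 3 scaffolds were thus lower at day 0 than in embryonic stem cells. Among all genes 22.8% were lower, and lower genes in other translation lists are given below.

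Of 7 cytosolic elongation factors, which deliver charged transfer RNAs to the ribosome or move it along the message, 0 were called at day 1, with 1 at an unadjusted p under 0.05. At day 4 against day 0 Eef2, the translocation factor, was higher by 1.86 ± 0.42 and Eef1d lower by -0.56 ± 0.16. In adult islets against day 0 Eef2 was higher by 2.18 ± 0.42, Eef1a2 higher by 2.01 ± 0.14 and Eef1d lower by -0.79 ± 0.16. At day 0 against embryonic stem cells 1 of the 7 was higher and 4 lower, beside 26.5% and 22.8% of all genes. Eef2 was lower by -2.61 ± 0.42 there.

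A list of 24 other genes, Atf4 itself and genes known to respond to it, had a median difference of 1.04 at day 1. Of these, 13 were higher and 0 lower, where 2% of all genes rose and 2.37% fell. Trib3 and Slc7a11, among those higher, were at background on every day 0 array. Atf4 was not called at day 1 (1.09 ± 0.67, limma adjusted p = 0.456) or at day 4 against day 0 (2.31 ± 0.76, adjusted p = 0.0763). It was higher in adult islets than at day 0 (3.09 ± 0.76). The 3 with the largest differences were Chac1, which breaks down glutathione, at 3.81 ± 0.17, the mitochondrial folate enzyme Aldh1l2, at 2.51 ± 0.10, and the translation repressor Eif4ebp1, at 2.19 ± 0.27. At day 4 against day 0 the counts were 10 higher and 2 lower, beside 5.39% and 6.05% of all genes. In adult islets against day 0 they were 14 higher and 2 lower, beside 14.7% and 19.4%. At day 0 against embryonic stem cells 4 were higher and 9 lower, beside 26.5% and 22.8% of all genes, with Eif4ebp1 lower by -3.63 ± 0.30. The list was chosen with results of these data known and is no independent evidence of its direction.

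The proteins that work with the mitochondrial synthetases showed the following counts. Of 13 mitochondrial translation factors and charging partners 0 were called at day 1 or day 4 against day 0, with 1 and 3 at an unadjusted p under 0.05. In adult islets against day 0, 3 of 13 were lower, a share near the 19.4% of all genes: the elongation factor Tufm by -1.02 ± 0.15, the release factor Mtrf1l by -0.82 ± 0.14 and Gatb, a subunit of the enzyme that completes glutamine transfer RNA in mitochondria, by -0.48 ± 0.14. Of 70 mitochondrial ribosomal protein genes 0 were higher and 4 lower at day 1 (median -0.17), where 2.37% of all genes fell. At day 4 against day 0, 1 was higher and 12 lower (median -0.24), where 6.05% of all genes fell. In adult islets against day 0 0 were higher and 34 lower (median -0.48, beside -0.35 for the 12 mitochondrial synthetases and -0.07 for all genes). At day 0 against embryonic stem cells 10 of the 70 were higher and 24 lower, beside 26.5% and 22.8% of all genes. Of the 13 translation factors and charging partners 2 were higher and 4 lower there.

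Other marker lists also moved at day 1. Of 15 immediate early and stress genes 8 were lower than at day 0, from a summed level of 14.69 to 15.42 at day 0 to 13.09 to 13.69 at day 1. The counts of acinar genes called were 0 higher and 0 lower of 12, with 1 at an unadjusted p under 0.05, and those of mesenchymal genes 0 and 0 of 10, with 1 likewise. Of 10 immune genes 2 were lower and of 4 erythroid genes 1 was lower, and the summed erythroid level ranged from 11.49 to 15.04 at day 1 and from 13.58 to 14.98 at day 0. Their part in the rise of Mars, Aars and Nars was not tested.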

How the data were processed

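The values are log2 intensities that the authors deposited after a normalization that is not given in the sources used here, and base 2 was inferred from their range, 6.73 to 15.20. Per the labels' protocols, RNA was extracted with Trizol and labelled with biotin as cRNA by an Illumina TotalPrep kit (Ambion). The signals deposited without normalization were not used, since none of the 13 value columns carries a name found among the sample labels. From the deposited values, a background level of 7.24 was set at the mode (6.98) plus 5 times the SD below it (0.052), and between 44.1% and 46.4% of probes exceeded it on each array. The number of arrays limits the precision. A probe was kept if it exceeded that level on at least 2 arrays, and the brightest kept probe of a symbol, by its mean over 13 arrays, stood for the gene. Of 25697 probes, 23978 name 1 gene and 1719 none, and the 16593 symbols left 10382 genes. Mars was matched through its gene identifier, and Tarsl2 was counted as cytosolic.

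With limma 3.58.1 in R 4.3.3 (lmFit and eBayes, no trend), 5 group means were estimated from the 13 arrays together, leaving 8 residual degrees of freedom beside a prior of 2.94, and p-values were adjusted over all genes. The method was tested on simulated data with independent arrays and, for each gene, the same spread in every group. Such data cannot show how unequal spreads between groups affect the calls. Differences are log2 ± SE, and sets of genes are described by counts and medians with no test. Statements that groups do not overlap only describe the arrays, since the share of all genes without overlap was not computed.

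The members and lists were chosen with earlier results of these data known. Array values were given for the called genes with the largest differences, up to 6 rises and 4 falls per comparison and compartment, and also for Fars2 in adult islets and for Sars, Iars and Eprs at day 1, which were added after their values were seen. Up to 3 called genes were named per partner list. Promoters are RefSeq sequences of GRCm38.p6. RefSeq protein sequences were not used here. Deviations of same-numbered samples of different groups had correlations of -0.31 to 0.29 over 21 pairs, 3 of them above 0.1. Replicate numbers were therefore not taken as pairs. In groups of 2 arrays the deviations from the group mean are mirror images, so this check cannot exclude a pairing. Differently numbered samples gave -0.40 to 0.55 over 45 pairs, 6 of them above 0.1. The highest were day 0 replicate 3 with day 1 replicate 2 (0.55) and day 0 replicate 4 with day 1 replicate 3 (0.37). The labels do not say whether such samples shared a preparation, and this was not tested. Alternatives covered the filter, the choice of probe, the variance model, array weights, scaling, the arrays in the fit, background subtraction and the omission of arrays.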

Additional observations from a re-analysis of the deposited data

Results flagged for a closer look

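Of 32 genes examined in the 4 day 0 samples, 4 had 1 array far from the others, with a gap to the nearest array of 0.831 to 0.901 of the whole range. Chance alone flags about 1 in 20 groups. Aars was lowest on day 0 replicate 4, at 9.55, with the next array at 10.18. Aars2 was highest on day 0 replicate 2, at 7.50, with the next at 7.25, and Pars2 was lowest on the same array, at 7.01, with the next at 7.42, both near background. Vars2 was highest on day 0 replicate 1, at 9.18, with the next at 8.75. The calls for Aars at day 1 and in adult islets held without day 0 replicate 4.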

How the results depend on the processing

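The alternative settings gave 698 values for the 41 calls for single genes. Of these values 0 changed sign, which says little, since only genes already called on mostly the same arrays were followed. Of the 41 calls 20 held in every setting run, among them Mars and Aars at day 1 (18 settings each). The number of synthetase genes called moved by more than 1.5 times as follows. With array weights it was 6 instead of 3 for day 1 against day 0, 11 instead of 5 for day 4 against day 0, 8 instead of 0 for day 4 against day 1, and 12 instead of 1 for adult islets against day 4. For that last comparison it was also 3 with the mean of the passing probes, 12 with only the 2 groups in the fit and 0 with background subtracted. With 1 array left out, the counts ranged from 2 to 4 for day 1 against day 0, 1 to 5 for day 4 against day 0, 0 to 0 for day 4 against day 1, 0 to 0 for adult islets against day 4, 5 to 12 for adult islets against day 0 and 14 to 21 for day 0 against embryonic stem cells. A left-out array can leave 1 array in a group, which is then assumed to vary like the others.

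The check of deviations neither showed nor could exclude a pairing by replicate number. The replicate block gave 2 calls for day 1 against day 0 (Nars lost, limma adjusted p = 0.0879), and 10 for adult islets against day 0. Over all genes the block moved the calls from 454 to 235, from 1188 to 570 and from 161 to 23 for day 1 against day 0, day 4 against day 0 and day 4 against day 1. Array weights moved them to 1036, 2970 and 2892, and from 1501 to 3981 for adult islets against day 4. Fits of only the 2 groups gave 168, 14 and 4066 for day 1 against day 0, day 4 against day 1 and adult islets against day 4. The cause of these shifts was not tested. Signal near background limits Cars, Hars, Yars, Farsa, Nars2, Aars2, Sars2, Mars2 and Pars2, and in part Eprs, Tarsl2 and Lars2. With background subtracted, differences of called genes grew by over 1.5 times for Tarsl2 at day 4 (1.83), Eprs (2.75), Lars2 (-1.40, call lost at adjusted p = 0.0559 in limma) and Vars2 (-1.16) in adult islets against day 0, and Eprs (-2.69), Lars2 (2.82), Mars2 (-2.30), Sars2 (-2.10), Farsa (-1.78), Aars2 (-1.34) and Tars (-1.04) at day 0 against embryonic stem cells. With the mean of the passing probes the last comparison gave -0.85 for Eprs, -1.07 for Vars and -0.34 for Tars.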
